A study of Mus musculus with 15 samples.

Results

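Cells in which ERK signalling had been switched on and then blocked again were compared with the same cells before induction, to find which transcripts were away from their starting level. The comparison set 4 MEK-inhibited libraries against 3 uninduced libraries, out of 15 libraries in the series, and took in every gene of the count table. Of 52636 annotated mouse genes, 13451 had enough reads to be tested. All libraries came from CRAFR26, a mouse embryonic stem cell line carrying a cRAF kinase construct that 4-hydroxytamoxifen (4OHT) switches on, and from 2 clones of it, numbered 4 and 8. The cells had been differentiated for 48 h into epiblast-like cells (EpiLC) with bFGF at 12 ng/ml, Activin A at 20 ng/ml and the tankyrase inhibitor XAV939 at 1 µM. All groups also had 2 h in 250 nM of the FGF receptor inhibitor PD17 (PD173074) before the start.

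The uninduced group (0h) then had no further agent and held 1 library of clone 4 and 2 of clone 8, the submitters having discarded a further sample at quality control. The MEK-inhibited group (rev) was induced with 250 nM 4OHT for 4 h before a MEK inhibitor was given for another 2 h, with 2 libraries of each clone. Cells with 2 h or 4 h of 4OHT alone (4 libraries each) served for levels during induction. The MEK-inhibited and uninduced groups thus differed at once in 4OHT, in the MEK inhibitor and in 6 h of culture, and these cannot be told apart here. The inhibitor's name and dose, and whether the libraries of a clone came from separate cultures, are not given in the sources used here, so p-values measure the spread between these samples, which may be technical.

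ERK is the last kinase of the RAF, MEK and ERK cascade, which carries growth factor signals from receptors to the nucleus. Its first transcriptional targets are immediate early genes, which need no new protein synthesis. Among the targets are Sprouty, Spred and dual-specificity phosphatase genes, whose products damp the same cascade. In pluripotent cells FGF and ERK signalling drives the exit from the naive state towards the formative state that EpiLC model. A MEK inhibitor stops the phosphorylation that activates ERK.

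The libraries held 9226145 to 13004556 counts uninduced and 8667880 to 11684027 MEK-inhibited. Between 16.8% and 38.7% of counts came from ribosomal RNA genes. Mitochondrially encoded genes took 2.67% to 3.84% of counts in uninduced and 3.43% to 6.66% in MEK-inhibited libraries. The 4 h libraries were shallower, at 1552022 to 6658950 counts with 7.21% to 12.4% mitochondrially encoded, and stood apart from the other 11 on the first principal component, so 4 h levels are less precise. Levels below are counts scaled to library size (CPM) after TMM scaling, which sets libraries to a common scale from the bulk of genes, and libraries are listed in a fixed order, clone 4 before clone 8. The 8 EpiLC markers summed to 1190 to 1439 CPM uninduced and 996 to 1083 CPM MEK-inhibited. Most of both sums was Dnmt3b, at 863 to 1061 CPM uninduced and 661 to 714 CPM MEK-inhibited. Of the 8 markers 2 were called in the test below, Dnmt3b lower and Sox2 higher. Summed markers of naive cells stayed at 32.8 to 43.6 CPM in all 7 libraries. Markers of mesendoderm (3.01 to 4.05 CPM uninduced, 8.20 to 13.5 CPM MEK-inhibited), of neural cells (3.40 to 6.54 and 9.13 to 10.9 CPM) and of fibroblasts (3.21 to 9.99 and 6.74 to 16.1 CPM) were low in both groups, and the fibroblast gene Postn had no count in any of the 7.

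In the MEK-inhibited cells 1500 of the 13451 tested genes, 11.2%, differed from the uninduced level at an adjusted p under 0.05. Of these 873 (6.49% of tested genes) were higher and 627 (4.66%) lower. The test was edgeR's quasi-likelihood F test with Benjamini-Hochberg adjustment over all tested genes, fitted on all 15 libraries with clone as a covariate. The rises were the larger changes: 377 genes were at least 2-fold higher and 129 at least 2-fold lower, and the median absolute log2 fold change of the called genes was 0.76. All 4 MEK-inhibited libraries lay above all 3 uninduced ones for 14.7% of tested genes and below them for 11.3%. Such a separation held for 796 of the genes called higher and 539 of those called lower. Among genes averaging 30 CPM or more, 228 were called higher and 162 lower out of 2735, with a median absolute log2 fold change of 0.47. Among long non-coding RNA genes 33 of 885 were higher (3.73%, against 6.49% of all tested genes) and 10 lower (1.13%, against 4.66%).

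**Figure D1:**
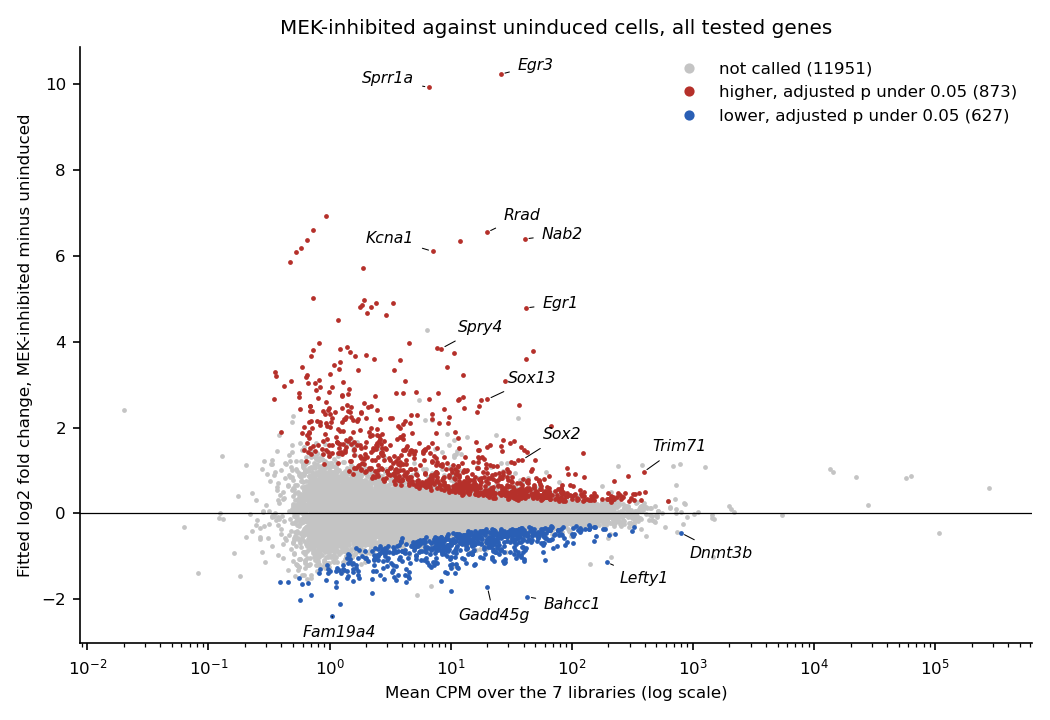
Fitted log2 fold change (MEK-inhibited minus uninduced, vertical axis) against mean CPM over the 7 libraries (horizontal axis, log scale) for the 13451 tested genes. Red points are the 873 genes called higher and blue points the 627 called lower; the rises reach further from 0 than the falls, with Egr3 and Sprr1a at the top and Fam19a4 at the bottom.

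When libraries were left out one at a time, the count of calls moved most with the uninduced library of clone 4. Without it 511 genes were called, against 861 without the second MEK-inhibited library of clone 4 and 826 without the second of clone 8. Scaling by total count instead moved the median of all tested genes to −0.30 on the log2 scale and left 770 calls, of which 31.7% were higher, against 58.2% with TMM scaling. Directions below are relative to the bulk of genes. Of 187 called genes followed one by one, 95 kept an adjusted p under 0.05 whichever of the 7 libraries was left out, and 86 of the other 92 lost it without the clone 4 uninduced library. Of the same 187 genes 65 missed the threshold with total count scaling and 71 with no term for clone. The fitted fold change moved by over 1.5 times for 30 of the 187 when 1 library was left out, and for 28 of these without the clone 4 uninduced library. In bulk samples, fewer cells that express a gene and less RNA per cell cannot be told apart.

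The 15 largest rises among called genes averaging at least 1 CPM included the transcription factors Egr3 and Egr1 and the Egr corepressor Nab2. Egr3 (at chr14:70077203-70082614 in GRCm38) had 0, 0 and 0.121 CPM in the uninduced and 62.99, 74.5, 22.8 and 21.5 CPM in the MEK-inhibited libraries. With 3 counts or fewer in each uninduced library its rise is given as a lower bound, at least 188-fold against a floor of 3 counts per library. Sprr1a, a cornified envelope protein of squamous epithelia, was without a count in all uninduced libraries and at 8.90, 21.6, 8.74 and 7.06 CPM in the MEK-inhibited ones, at least 47.8-fold higher. In neither gene did the groups overlap, and all MEK-inhibited libraries lay above all uninduced ones for 14.7% of tested genes. Lor (loricrin), the major cornified envelope protein, had 0.540, 0.0668 and 0.121 CPM uninduced and 21.02, 28.5, 18.05 and 15.8 CPM MEK-inhibited, a log2 fold change of 6.35 (SE 0.61) and edgeR adjusted p = 4.41e-05, or 6.96 on the log2 scale without the clone 4 uninduced library. Rrad, a small GTPase of the RGK family, had 0.216, 0.267 and 0.485 CPM uninduced and 47.3, 52.97, 21.6 and 16.6 CPM MEK-inhibited. Its log2 fold change was 6.55 (SE 0.65) with edgeR adjusted p = 8.44e-05, or 5.45 without the clone 4 uninduced library, and its clone 4 values were above those of clone 8.

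Kcna1, a voltage-gated potassium channel at chr6:126640397-126646384, had 0.216, 0.134 and 0.121 CPM uninduced and 14.1, 12.8, 11.8 and 10.4 CPM MEK-inhibited. It rose by 6.11 on the log2 scale (SE 0.40, edgeR adjusted p = 8.08e-10), and its MEK-inhibited mean of 12.3 ± 1.56 CPM (SD, n = 4) stood above means of 4.18 CPM at 2 h and 7.06 CPM at 4 h of induction. Trpv3, a cation channel of keratinocytes, Maf, a basic leucine zipper factor, Meis1, a homeobox factor, Pla2g7, a secreted phospholipase, and Sstr3, a somatostatin receptor, had 3 counts or fewer in every uninduced library. Their lower bounds were 13.2-fold, 12.7-fold, 14.6-fold, 23.6-fold and 16.9-fold. At 2 h of induction their means were 1.74, 1.42, 0.813, 1.44 and 1.15 CPM, and at 4 h 0.976, 0.918, 1.90, 8.76 and 0.674 CPM. The MEK-inhibited means were 3.18, 3.06, 3.52, 5.70 and 4.10 CPM, above both for all but Pla2g7. Pla2g7 had 13.4, 19.3, 1.59 and 0.754 CPM at 4 h and 6.80, 8.05, 4.23 and 3.74 CPM MEK-inhibited. Its MEK-inhibited libraries were thus below those at 4 h in clone 4 and above them in clone 8. In the 4 h libraries 3 counts correspond to 0.683 to 1.83 CPM, so low 4 h means are near the floor. Gm13889 and Ankrd63, at least 13.5-fold and 15.6-fold higher, completed the list together with Ccn4, a secreted matricellular protein, at 0.216, 0 and 0 CPM uninduced and 3.85, 4.75, 1.97 and 2.70 CPM MEK-inhibited, whose log2 fold change was 4.97, or 7.37 without the clone 4 uninduced library. Over the whole comparison 37 genes called higher had 3 counts or fewer in each uninduced library.

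The 10 genes with the smallest p were Spry4, Sox13, Kcna1, Myof, Sstr3, Adgrg1, Pitpnc1, Trim71, Erf and Plat. Spry4, a Sprouty inhibitor of receptor tyrosine kinase signalling, had 0.972, 0.869 and 0.727 CPM uninduced and 17.4, 17.97, 9.73 and 10.9 CPM MEK-inhibited, a rise of 3.84 on the log2 scale (SE 0.17, edgeR adjusted p = 1.54e-12). Its means during induction were 91.1 CPM at 2 h and 70.4 CPM at 4 h, so the MEK-inhibited mean of 13.99 ± 4.28 CPM (SD, n = 4) was under both and still above every uninduced library. Sox13, a SoxD transcription factor, had 5.61, 3.81 and 4.85 CPM uninduced and 33.4, 36.6, 28.5 and 27.7 CPM MEK-inhibited and a log2 fold change of 2.66 (SE 0.16), with a 4 h mean of 36.5 CPM. Trim71 (LIN41), an RNA-binding regulator of early development, had 271, 228 and 224 CPM uninduced and 578, 591, 443 and 403 CPM MEK-inhibited. It was 0.96 higher on the log2 scale (SE 0.0877), with means of 475 CPM at 2 h and 495 CPM at 4 h. Scaled by total count it missed the threshold with edgeR adjusted p = 0.164. Adgrg1, an adhesion receptor, Myof, a membrane repair protein, and Plat, tissue plasminogen activator, rose by 2.42, 2.71 and 3.97 on the log2 scale, and none of these 3 lost the call without any 1 library. Their means were 5.08, 8.48 and 2.45 CPM at 2 h and 4.03, 28.2 and 4.69 CPM at 4 h. The MEK-inhibited means were 13.6, 19.95 and 7.62 CPM, above both for Adgrg1 and Plat and between them for Myof.

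**Figure D2:**
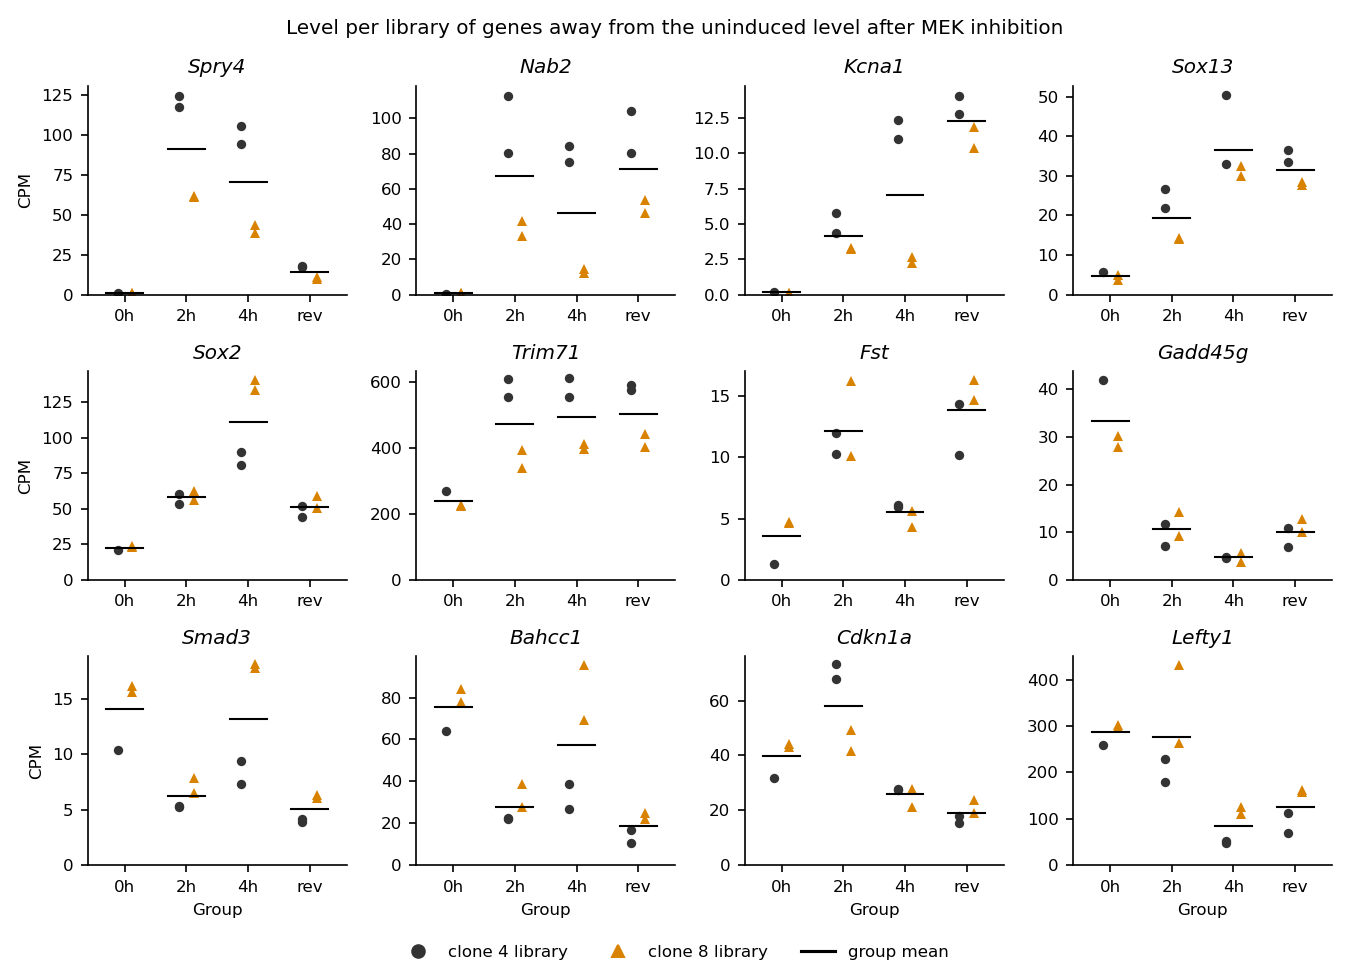
CPM per library (vertical axes, starting at 0) of 12 genes in the 4 groups (horizontal axes): circles are clone 4, triangles clone 8, and lines are group means. Spry4 falls from its 2 h and 4 h levels but ends above the uninduced libraries, Nab2, Kcna1 and Trim71 end near or above their 4 h means, and Gadd45g, Smad3, Bahcc1, Cdkn1a and Lefty1 end below every uninduced library.

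Feedback inhibitors of ERK were partly still raised. Of 27 tested, 8 were higher (29.6%, against 6.49% of all tested genes) and 2 lower (7.41%, against 4.66%). The median log2 fold change of the list was 0.42 against 0.019 over all tested genes. Scaled by total count, 4 were higher and 1 lower and the median was 0.11, against −0.30 over all genes. Dusp6, the phosphatase specific for cytoplasmic ERK, had 2.27, 3.54 and 4.24 CPM uninduced and 22.98, 21.1, 18.5 and 16.9 CPM MEK-inhibited and rose by 2.45 (SE 0.36) on the log2 scale, from group means of 152 CPM at 2 h and 57.4 CPM at 4 h. Dusp5, which acts on nuclear ERK, had 5.02, 3.14 and 3.39 CPM uninduced and 32.02, 40.5, 20.2 and 15.05 CPM MEK-inhibited, and Dusp14 had 2.27, 1.80 and 2.79 CPM uninduced and 21.3, 29.7, 13.1 and 10.3 CPM MEK-inhibited. Their log2 fold changes were 2.49 (SE 0.49) and 2.66 (SE 0.41). Spred1 had 14.6, 22.7 and 21.1 CPM uninduced and 47.2, 46.9, 37.6 and 42.7 CPM MEK-inhibited, Spred3 rose by 1.10 and Spry2 by 0.91. Spred1, Spred3 and Spry2 missed the threshold with total count scaling, at edgeR adjusted p = 0.0547, 0.123 and 0.196. In all 6 the MEK-inhibited libraries were above the uninduced ones, as in 14.7% of all tested genes.

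Of the other feedback genes, most did not pass the test. Dusp1, an immediate early phosphatase, had 16.1, 10.5 and 12.1 CPM uninduced and 13.9, 16.9, 12.3 and 13.8 CPM MEK-inhibited, overlapping, with a log2 difference of 0.0149 (SE 0.32) and a 2 h mean of 79.1 CPM. Spred2 was above in each library, as were 14.7% of all tested genes, by 0.22 (edgeR adjusted p = 0.196). Spry1 differed by 0.42 (edgeR adjusted p = 0.325). Dusp7 fell, with 21.1, 19.4 and 16.4 CPM uninduced and 10.7, 9.91, 12.3 and 13.9 CPM MEK-inhibited and a log2 fold change of -0.69 (SE 0.18). Rasa2 and Rasa3, Ras GTPase-activating proteins, were called at 0.50 and -0.61. Each lost the call in 6 of the 7 refits without a library, with edgeR adjusted p up to 0.292 and 0.145. Without the clone 4 uninduced library Dusp5, Spry2 and Dusp7 also missed the threshold, at adjusted p = 0.0722, 0.0577 and 0.182, and Dusp7 also without the second MEK-inhibited library of clone 4, at 0.0513.

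Of 33 tested immediate early genes of 34 listed, 14 were higher (42.4%, against 6.49% of all tested genes) and 2 lower (6.06%, against 4.66%). Their median log2 fold change was 0.79. The 4 Egr zinc finger factors and both Nab genes, which encode corepressors that bind Egr factors, were called higher. Egr1 had 0.972, 1.67 and 3.27 CPM uninduced and 99.4, 96.3, 45.1 and 44.2 CPM MEK-inhibited and a log2 fold change of 4.79 (SE 0.65), from a 2 h mean of 599 CPM. Without the clone 4 uninduced library it was 4.02, and without the second of clone 8 5.52. Egr2 had 0.162, 0.201 and 0.606 CPM uninduced and 5.18, 4.96, 2.40 and 2.80 CPM MEK-inhibited, and Egr4 was at least 8.22-fold higher. Nab2 had 0.594, 0.802 and 0.727 CPM uninduced and 104, 80.3, 53.6 and 46.5 CPM MEK-inhibited, a log2 fold change of 6.40 (SE 0.57), with edgeR adjusted p = 6.99e-05, or 5.68 on the log2 scale without the clone 4 uninduced library. Nab1 had 3.02, 4.88 and 5.33 CPM uninduced and 50.5, 61.8, 34.3 and 36.3 CPM MEK-inhibited, a log2 fold change of 3.08 (SE 0.51). The MEK-inhibited mean of Nab2, 71.2 ± 26.5 CPM, differed from its 2 h mean of 67 ± 36.8 CPM (SD, n = 4 each) by less than the spread, and in clone 4 the MEK-inhibited mean was the lower one. For Nab1 the means were 45.7 ± 12.9 and 26.5 ± 9.52 CPM, and in each clone the MEK-inhibited libraries were above those at 2 h. Egr1 was at 71.3 ± 30.8 CPM (SD, n = 4) after 599 ± 267 CPM at 2 h. Nab2 overlaps Stat6 and Nemp1 exons on the opposite strand, and whether the counting used strand is not given in the sources used here.

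Among AP-1 genes, Fosl1 and Fosl2 were called higher. Fosl2 had 0.810, 0.602 and 1.70 CPM uninduced and 9.04, 11.05, 6.63 and 6.12 CPM MEK-inhibited, a log2 fold change of 2.82 (SE 0.74). Fosl1 had 1.13, 1.54 and 0.969 CPM uninduced and 8.41, 8.88, 2.96 and 3.32 CPM MEK-inhibited, a log2 fold change of 1.78 (SE 0.44). Both missed the threshold without the clone 4 uninduced library (edgeR adjusted p = 0.199 and 0.108) and without the second MEK-inhibited library of clone 8 (0.0923 and 0.0622). Fosl2 was lost as well without the first uninduced library of clone 8 (0.112) and without the second clone 4 and first clone 8 MEK-inhibited libraries (0.0666 and 0.0746). Without the clone 4 uninduced library their log2 fold changes were 2.08 for Fosl2 and 1.06 for Fosl1, and without an uninduced library of clone 8 up to 3.58 (the second) and 2.45 (the first). Fos had 0.324, 0.468 and 1.21 CPM uninduced and 2.66, 1.65, 1.97 and 2.28 CPM MEK-inhibited, from a 2 h mean of 33.5 CPM. It was above in every library, as were 14.7% of all tested genes, at edgeR adjusted p = 0.0550. Junb had 2.11, 2.47 and 2.91 CPM uninduced and 25.2, 18.7, 8.60 and 5.29 CPM MEK-inhibited at adjusted p = 0.0922, from 158 CPM at 2 h. Both were called in other fits, Fos in 10 and Junb in 8 of 19 alternatives, among them DESeq2 (adjusted p = 0.0229 and 0.0291), total count scaling and the fit of only the 7 libraries. Ier2 overlapped between the groups at 53.8, 40.6 and 37.3 CPM uninduced and 37.5, 32.01, 41.02 and 38.1 CPM MEK-inhibited, with a 2 h mean of 136 CPM.

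Arc, an activity-regulated cytoskeletal gene, had 4.10, 4.14 and 4.00 CPM uninduced and 36.3, 30.8, 17.9 and 18.5 CPM MEK-inhibited. Klf10, Maff and Csrnp1 rose by 1.44, 2.00 and 1.31 on the log2 scale. Myc, a growth-promoting transcription factor, had 1.62, 2.54 and 3.15 CPM uninduced and 20.3, 23.95, 15.9 and 13.3 CPM MEK-inhibited and a log2 fold change of 2.65 (SE 0.58), with edgeR adjusted p = 0.0157, or a log2 fold change of 2.04 and adjusted p = 0.0702 without the clone 4 uninduced library. Btg2, an antiproliferative p53 target, had 16.3, 33.6 and 38.4 CPM uninduced and 11.4, 10.9, 20.7 and 21.4 CPM MEK-inhibited and a log2 fold change of -0.74 (SE 0.16). The MEK-inhibited libraries were lower within each clone, and the groups overlapped across clones. Atf3 and Klf2 were called at -0.93 and 0.59, and lost the call in 7 and 6 of the 7 refits that left out a library, with edgeR adjusted p up to 0.299 and 0.176.

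Promoter windows from RefSeq (GRCm38.p6), 300 bases long from 250 before to 50 after an annotated start, were searched for 5 motifs on both strands. They cover 9890 of the tested gene symbols. The EGR motif GCGGGGGCG, the site read by Egr zinc fingers, was in the window of 12.8% of 639 genes called higher, 5.17% of 503 called lower and 6.80% of all tested genes. The AP-1 motif TGACTCA, bound by Fos and Jun dimers, was in 7.36% of genes called higher, 9.89% of those at least 2-fold higher, 4.17% of those called lower and 4.30% of all tested. The ETS motif CCGGAAGT ran the other way, at 5.48% of higher and 2.58% of lower genes against 9.26% of all tested. The CArG box of serum response factor was in 1.88%, 1.99% and 1.59%, and the cAMP response element TGACGTCA in 3.29%, 2.98% and 3.71%. The median G and C content of windows was 63.0% for both called groups and 61.3% for tested genes. The motifs differ in their own G and C content, and a match is a description of the letters only. Over all 27025 gene symbols with a window the EGR, AP-1 and ETS motifs were in 3.31%, 5.95% and 4.31%.

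**Figure D3:**
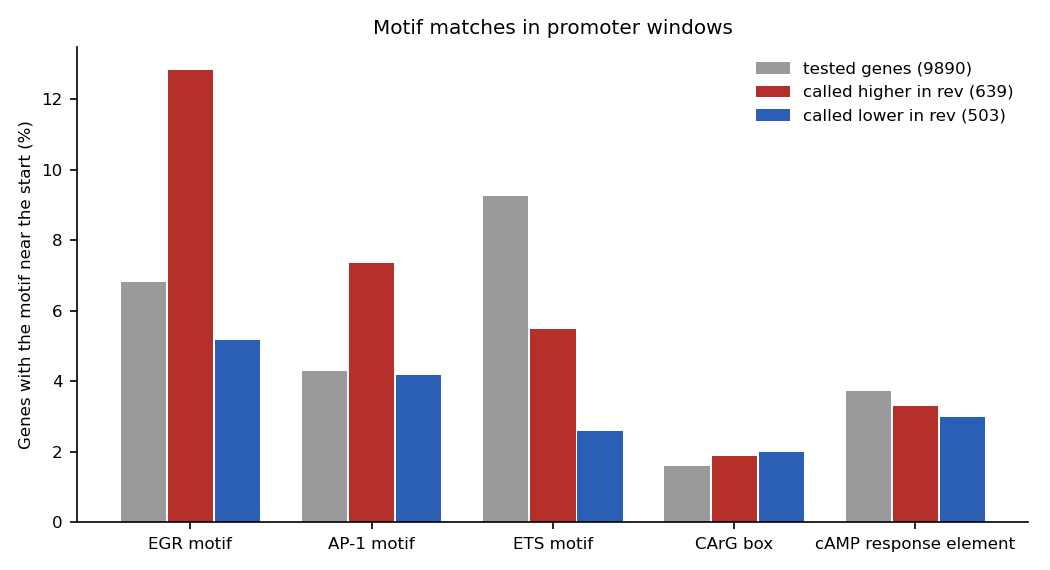
Share of genes (vertical axis, percent) with at least 1 match to each of 5 motifs in a RefSeq promoter window, for all tested genes with a window (grey), genes called higher (red) and genes called lower (blue) after MEK inhibition. For the EGR and AP-1 motifs the red bars, 12.8% and 7.36%, are the tallest of their set, and for the ETS motif the grey bar, 9.26%, is.

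Of the 15 largest rises 8 have a window. Among these 8, 1 holds the ETS motif and none holds the EGR motif, the CArG box or the cAMP response element. The AP-1 motif is held by 3, Sprr1a, Lor and Trpv3. The 250 bases before their starts are shown for that reason, together with those of Nab1 and Fosl2, raised genes of the Egr and AP-1 systems that hold the EGR motif, chosen after the matches were known. Capitals mark the motif on either strand, and each sequence reads 5′ to 3′ towards the gene.
Sprr1a, chr3:92485882-92486131, minus strand: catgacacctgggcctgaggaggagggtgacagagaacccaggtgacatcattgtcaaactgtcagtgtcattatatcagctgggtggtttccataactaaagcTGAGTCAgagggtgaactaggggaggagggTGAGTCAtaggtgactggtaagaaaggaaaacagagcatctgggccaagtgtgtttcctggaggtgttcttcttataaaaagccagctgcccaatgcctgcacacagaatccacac
Lor, chr3:92083143-92083392, minus strand: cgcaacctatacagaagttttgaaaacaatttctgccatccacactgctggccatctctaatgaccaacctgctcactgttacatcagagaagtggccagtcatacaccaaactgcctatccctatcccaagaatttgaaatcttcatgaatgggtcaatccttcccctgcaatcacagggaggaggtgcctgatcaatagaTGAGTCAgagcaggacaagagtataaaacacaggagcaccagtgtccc
Trpv3, chr11:73267270-73267519, plus strand: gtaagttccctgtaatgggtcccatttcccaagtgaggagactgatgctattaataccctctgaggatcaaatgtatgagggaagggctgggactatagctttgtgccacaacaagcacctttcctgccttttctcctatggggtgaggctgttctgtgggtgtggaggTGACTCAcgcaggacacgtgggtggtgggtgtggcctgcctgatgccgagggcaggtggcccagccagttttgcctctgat
Nab1, chr1:52500449-52500698, minus strand: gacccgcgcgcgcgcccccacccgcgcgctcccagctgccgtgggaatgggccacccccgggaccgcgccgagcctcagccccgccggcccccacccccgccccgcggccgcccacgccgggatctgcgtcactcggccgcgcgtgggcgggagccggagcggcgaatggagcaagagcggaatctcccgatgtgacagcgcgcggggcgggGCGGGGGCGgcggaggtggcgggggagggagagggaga
Fosl2, chr5:32136222-32136471, plus strand: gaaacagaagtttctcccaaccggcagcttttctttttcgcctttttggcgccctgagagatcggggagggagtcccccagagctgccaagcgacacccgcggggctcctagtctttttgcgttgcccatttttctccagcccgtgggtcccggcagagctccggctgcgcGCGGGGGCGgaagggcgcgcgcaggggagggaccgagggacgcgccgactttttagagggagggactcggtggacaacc
The Sprr1a window holds 2 matches, beginning 146 and 116 bases before the start, and those of Lor and Trpv3 begin 48 and 81 bases before it. In Nab1 and Fosl2 the EGR match begins 38 and 79 bases before the start.

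Among ETS transcription factors, many of which ERK phosphorylates, 4 of 14 tested were higher (28.6%, against 6.49% of all tested genes) and 1 lower (7.14%, against 4.66%). Erf, an ETS repressor that ERK exports from the nucleus, had 18.5, 19.99 and 18.8 CPM uninduced and 65.02, 57.8, 55.1 and 44.7 CPM MEK-inhibited, a log2 fold change of 1.47 (SE 0.14) and edgeR adjusted p = 6.82e-07. Its 4 h mean was 68.1 CPM. Ets2 rose by 0.95 (edgeR adjusted p = 0.222 with total count scaling) and Ets1 by 1.23. Etv4, a target of FGF signalling, fell, at 14.1, 23.5 and 23.6 CPM uninduced and 10.5, 9.29, 13.7 and 14.01 CPM MEK-inhibited and a log2 fold change of -0.68 (SE 0.13), while its relative Etv5 overlapped between the groups at 84.2, 93.9 and 96.4 CPM uninduced and 68.2, 76.7, 96.99 and 87.8 CPM MEK-inhibited. Scaled by total count, 1 of the 14 was higher and 2 lower and the list median went from 0.27 to −0.055, against a median of −0.30 over all genes. Gabpa, called at 0.43, lost the call whichever library was left out, with edgeR adjusted p up to 0.345. Ets1 lost it without the uninduced library of clone 4 (0.103), the second of clone 8 (0.0528) or the second MEK-inhibited library of clone 8 (0.0513).

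Of 29 tested genes listed as secondary ERK responses, 10 were higher, Rrad and Sprr1a among them, and 6 lower. These were 34.5% and 20.7%, against 6.49% and 4.66% of all tested genes. Phlda2, a PH-domain protein of an imprinted locus, had 10.4, 7.49 and 7.63 CPM uninduced and 73.8, 73.7, 44.7 and 39.4 CPM MEK-inhibited and a log2 fold change of 2.52 (SE 0.25), with edgeR adjusted p = 3.14e-05. Its MEK-inhibited mean of 57.9 ± 18.4 CPM (SD, n = 4) compared with 46.6 CPM at 2 h and 42.2 CPM at 4 h. Epha2, an ephrin receptor, had 8.96, 16.04 and 17.2 CPM uninduced and 51.7, 43.3, 38.6 and 39.7 CPM MEK-inhibited, down from 168 CPM at 2 h. Fgf8, an FGF ligand of the epiblast, had 1.62, 0.735 and 0.606 CPM uninduced and 6.17, 4.44, 1.83 and 2.80 CPM MEK-inhibited. Phlda1 (log2 fold change 2.73), Hbegf (2.37) and Tnfrsf12a (1.63) rose, and all 3 lost the call without the clone 4 uninduced library, at edgeR adjusted p = 0.149, 0.237 and 0.0655, where the log2 fold changes of Phlda1 and Hbegf were 1.72 and 1.51. Hbegf was lost also without the first uninduced library of clone 8 (0.0542) and Phlda1 without the second MEK-inhibited library of clone 8 (0.0565).

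In the same list Fgf4, the FGF ligand of naive and early formative cells, fell, with 96.6, 81.4 and 79.3 CPM uninduced and 35.2, 29.9, 48.5 and 47.2 CPM MEK-inhibited. Its 2 h mean was 85.04 CPM. The call of Fgf4 (log2 fold change -1.08) was lost without the clone 4 uninduced library and without the second MEK-inhibited library of either clone, at edgeR adjusted p = 0.161, 0.0665 and 0.0508. Ccnd1, cyclin D1, fell to 44.98, 35.8, 47.8 and 55.9 CPM from 79.8, 75.2 and 70.99 CPM, a log2 fold change of -0.69 (SE 0.11), and kept the call without each library. Fgf15, Lif and Ephb4, called lower at -0.79, -0.72 and -0.58, and Efnb1, called higher at 0.69, lost the call in 4, 7, 5 and 7 of the 7 refits that left out a library, with adjusted p up to 0.223, 0.129, 0.398 and 0.171. Of 31 components of FGF and receptor tyrosine kinase signalling 3 were higher and 3 lower, 9.68% each, against 6.49% and 4.66% of all tested genes. With total count scaling none was higher and 2 were lower. Rps6ka2, an ERK-activated S6 kinase, fell by 0.86 on the log2 scale, and its relative Rps6ka3 had 11.6, 14.9 and 12.1 CPM uninduced and 26.2, 39.96, 25.5 and 25.6 CPM MEK-inhibited, higher by 1.09. Igf1r, the IGF1 receptor, fell to 19.3, 19.8, 24.2 and 22.3 CPM from 25.3, 36.3 and 35.7 CPM. Braf and Frs2 were called higher at 0.59 and 0.48 and Fgfr1 lower at -0.39, and all 3 lost the call without the clone 4 uninduced library (edgeR adjusted p = 0.176, 0.162 and 0.414). Without the clone 4 uninduced library Rps6ka3 had adjusted p = 0.0518.

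The 15 largest falls were smaller than the rises. Bahcc1, a BAH-domain chromatin protein, had 64.1, 77.8 and 84.1 CPM uninduced and 16.8, 10.6, 24.7 and 22.1 CPM MEK-inhibited and a log2 fold change of -1.95 (SE 0.21), with edgeR adjusted p = 3.14e-05. Pitpnc1, a phosphatidylinositol transfer protein, had 15.01, 16.6 and 19.3 CPM uninduced and 3.71, 4.44, 4.79 and 6.12 CPM MEK-inhibited and fell by 1.80 on the log2 scale. Gadd45g, a stress and differentiation gene, had 41.9, 27.9 and 30.2 CPM uninduced and 10.9, 6.81, 12.8 and 10.1 CPM MEK-inhibited and fell by 1.72. In these 3 no MEK-inhibited library reached an uninduced one, as in 11.3% of all tested genes, and none lost the call without a library. Their means at 2 h were 27.7, 9.07 and 10.6 CPM and at 4 h 57.5, 11.9 and 4.76 CPM. The MEK-inhibited means, 18.6, 4.77 and 10.1 CPM, were below both for Bahcc1 and Pitpnc1 and above the 4 h mean for Gadd45g. Chst11, a chondroitin sulfotransferase, fell to 1.05, 1.03, 0.987 and 0.830 CPM from 2.75, 4.81 and 4.36 CPM, Synm, an intermediate filament protein, to 2.66, 3.10, 5.22 and 5.60 CPM from 8.42, 15.9 and 17.3 CPM, and Mob3b to 1.47, 2.17, 3.67 and 1.76 CPM from 6.05, 7.35 and 7.63 CPM. The largest fitted fall, of Fam19a4, a secreted chemokine-like protein (-2.40), and that of Foxj1, a regulator of ciliogenesis (-2.11), were of lowly expressed genes, at 2.05, 2.07 and 1.70 CPM and 2.54, 1.20 and 2.79 CPM uninduced, and both lost the call without the clone 4 uninduced library (edgeR adjusted p = 0.0784 and 0.0727), where the fall of Fam19a4 was -1.71. The others were Stxbp6, Gm13067, Pou4f3, Tmem81, Nrtn, Ltb4r2 and Scarna6, at log2 fold changes of -1.56, -1.52, -1.52, -1.59, -1.54, -1.71 and -1.58. The last 4 lost the call without at least 1 library, with adjusted p up to 0.0647, 0.199, 0.198 and 0.144, and Scarna6 was at -2.26 without the clone 4 uninduced library.

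Core pluripotency genes moved in opposite directions. Of 10 tested, Sox2 was higher and 4 were lower, against 6.49% higher and 4.66% lower over all tested genes. With total count scaling 2 of the 10 were lower. Sox2 had 20.8, 23.5 and 22.8 CPM uninduced and 51.9, 44.5, 50.2 and 58.7 CPM MEK-inhibited, a log2 fold change of 1.24 (SE 0.13) and edgeR adjusted p = 2.18e-06, after means of 58.1 CPM at 2 h and 111 CPM at 4 h. Its partner Pou5f1 (Oct4) overlapped between the groups at 184, 168 and 151 CPM uninduced and 158, 133, 153 and 139 CPM MEK-inhibited, with a log2 difference of -0.21 (SE 0.12). Utf1, a chromatin-associated factor of undifferentiated cells, had 137, 99.7 and 102 CPM uninduced and 84.2, 67.01, 64.6 and 61.1 CPM MEK-inhibited and Tdgf1, the Nodal co-receptor Cripto, 66.8, 66.6 and 75.4 CPM uninduced and 58.8, 42.1, 39.8 and 36.9 CPM MEK-inhibited, falls of 0.75 and 0.69 on the log2 scale. Sall4 and L1td1 were called lower at -0.37 and -0.37, and lost the call without the clone 4 uninduced library (edgeR adjusted p = 0.484 and 0.241) and in other refits, 5 and 3 of 7 in all.

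Of 24 tested formative and primed genes 3 were higher (12.5%, against 6.49% of all tested genes) and 4 lower (16.7%, against 4.66%), with a median of 0.019. With total count scaling none was higher and 2 were lower. Dnmt3b, the de novo DNA methyltransferase most abundant in EpiLC, had 1061, 863 and 882 CPM uninduced and 714, 661, 709 and 663 CPM MEK-inhibited, a log2 fold change of -0.45 (SE 0.0780) (edgeR adjusted p = 0.0598 with total count scaling). Fgf5, the classic EpiLC marker, had 28.9, 20.1 and 20.5 CPM uninduced and 15.5, 18.8, 14.8 and 17.7 CPM MEK-inhibited. It was below in each library, as were 11.3% of all tested genes, at edgeR adjusted p = 0.0842. Otx2 and Pou3f1 overlapped between the groups. Foxp1, a forkhead factor, rose by 0.75, or by 0.41 with edgeR adjusted p = 0.3996 when scaled by total count. Zic2 and Sox4 were called at 0.39 and 0.60, and lost the call in 4 and 6 of the 7 refits, with adjusted p up to 0.114 and 0.169. Of 27 tested naive genes 5 were higher (18.5%) and 2 lower (7.41%), or 3 and 1 with total count scaling. Pecam1 had 4.91, 2.94 and 4.60 CPM uninduced and 9.74, 8.78, 11.7 and 9.96 CPM MEK-inhibited, and Tbx3 rose by 1.53 and Nr5a2 by 1.38. Tbx3 was lost without the clone 4 uninduced library (adjusted p = 0.145) and Nr5a2 without the first of clone 8 (0.106). The naive factors Nanog, Esrrb and Zfp42 differed by -0.29, -0.52 and 0.27, with edgeR adjusted p = 0.703, 0.598 and 0.629.

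DNA methylation genes included both writers and erasers that changed. Tet2, a 5-methylcytosine oxidase, had 9.34, 9.96 and 10.4 CPM uninduced and 22.3, 25.5, 30.6 and 32.2 CPM MEK-inhibited, higher by 1.54 on the log2 scale (SE 0.20, edgeR adjusted p = 6.49e-05), after 74.8 CPM at 4 h. Tet1 had 175, 193 and 221 CPM uninduced and 96.7, 105, 136 and 139 CPM MEK-inhibited and Tet3 25.1, 26.4 and 28.1 CPM uninduced and 68.2, 78.7, 47.7 and 46.2 CPM MEK-inhibited, called at -0.65 and 0.99. Of 12 tested, 2 were higher (16.7%, against 6.49% of all tested genes) and 3 lower (25.0%, against 4.66%), or 1 and 1 with total count scaling. Tet1, Tet3 and Dnmt3l lost the call in 6, 7 and 6 of the 7 refits without a library, with adjusted p up to 0.270, 0.177 and 0.153. Dnmt3a overlapped between the groups, with a log2 difference of -0.0286 (SE 0.0837).

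Nodal and Activin signalling keeps EpiLC in the formative state, through Nodal or Activin ligands, Activin receptors with the Cripto co-receptor, and Smad2 and Smad3. Of 21 tested genes of the pathway 4 were higher (19.0%, against 6.49% of all tested genes) and 5 lower (23.8%, against 4.66%), or 2 and 4 with total count scaling. Both a ligand subunit and its antagonist rose: Inhbb, an Activin subunit, had 0.216, 0.134 and 0 CPM uninduced and 3.01, 3.41, 2.11 and 0.934 CPM MEK-inhibited, and Fst (follistatin), which binds and blocks Activin, 1.30, 4.75 and 4.60 CPM uninduced and 10.2, 14.4, 14.7 and 16.3 CPM MEK-inhibited. Their log2 fold changes were 3.87 (SE 0.52) and 2.11 (SE 0.30), with edgeR adjusted p = 3.22e-05 and 1.23e-04. Nodal had 25.3, 31.6 and 30.2 CPM uninduced and 15.6, 12.8, 22.1 and 21.3 CPM MEK-inhibited and fell by 0.63, and Lefty1, a Nodal antagonist and target, had 258, 301 and 298 CPM uninduced and 112, 68.7, 162 and 158 CPM MEK-inhibited and fell by 1.14 on the log2 scale. Smad3 had 10.4, 16.2 and 15.6 CPM uninduced and 3.85, 4.13, 6.34 and 6.02 CPM MEK-inhibited, a fall of 1.36, and Lefty1 and Smad3 had 4 h means of 84.1 and 13.1 CPM. Of the genes with smaller changes, the receptor Acvr2b and the Smad corepressors Skil and Tgif1 were called at -0.44, 0.39 and 0.44, and all 3 lost the call without the clone 4 uninduced library, at adjusted p = 0.272, 0.234 and 0.0778.

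Of 15 tested genes of the BMP pathway 6 were higher and none lower, against 6.49% higher and 4.66% lower over all tested genes. The median log2 fold change of the 15 was 0.87, against 0.019 over all tested genes. They were lowly expressed. Id2, a helix-loop-helix inhibitor, had 0.918, 0.668 and 0.727 CPM uninduced and 3.01, 3.61, 3.38 and 3.11 CPM MEK-inhibited. Its relative Id4 had 0.378, 0.267 and 0.121 CPM uninduced and 2.17, 2.06, 1.97 and 1.87 CPM MEK-inhibited, and the homeobox factor Msx2 had 0.270, 0.0668 and 0.121 CPM uninduced and 1.33, 1.24, 1.41 and 1.45 CPM MEK-inhibited. In each the MEK-inhibited libraries were above the uninduced ones, as in 14.7% of all tested genes, and none of the 3 lost the call without a library. Bmp4, Msx1 and Gata2 rose by 1.63, 2.22 and 2.82, and lost the call without the clone 4 uninduced library (edgeR adjusted p = 0.258, 0.111 and 0.207). Gata2 was at 2.09 there, and without the first uninduced library of clone 8 Msx1 was at 2.85 and Gata2 at 3.48. Id1 and Id3 were above in each library with edgeR adjusted p = 0.0781 and 0.232. Of the 18 listed genes 3 were too low to test, and a low gene can pass the filter through the group in which it is high.

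Notch and Hippo genes were mostly lower where called, 5 of 14 (35.7%, against 4.66% of all tested genes), with 1 higher (7.14%, against 6.49%). The Notch ligand Dll1 had 26.1, 22.9 and 20.96 CPM uninduced and 6.80, 8.78, 12.4 and 12.97 CPM MEK-inhibited, a log2 fold change of -1.19 (SE 0.21) and edgeR adjusted p = 6.49e-04. Amotl2, a YAP target that feeds back on YAP, had 48, 51.9 and 51.5 CPM uninduced and 18.99, 18.9, 33.7 and 29.1 CPM MEK-inhibited, and Ajuba, a LIM scaffold of the Hippo pathway, 98.3, 90.9 and 88.2 CPM uninduced and 54.2, 43.3, 56.4 and 55.9 CPM MEK-inhibited. Both were below every uninduced library, as were 11.3% of all tested genes. They fell by 0.98 and 0.80 on the log2 scale, and Wwc1 by 0.61. Dll3 fell by 1.14, or with edgeR adjusted p = 0.0508 without the clone 4 uninduced library. Hes5, a Notch target, was at most 3 counts uninduced and at least 2.41-fold higher, with adjusted p = 0.243 without that library. In the Wnt pathway 4 of 23 were higher (17.4%, against 6.49% of all tested genes) and 1 lower (4.35%, against 4.66%), or 2 and 1 with total count scaling. Dkk1, a secreted Wnt antagonist, had 0.324, 0.134 and 0 CPM uninduced and 1.26, 1.86, 1.13 and 0.934 CPM MEK-inhibited and rose by 2.69, or 3.46 without the clone 4 uninduced library. Tcf7l2, Fzd2 and Tnks were called at 1.10, -0.75 and 0.30 and Lgr5 had 0.540, 0.468 and 0.363 CPM uninduced and 2.66, 4.85, 1.69 and 1.35 CPM MEK-inhibited, each lost without the clone 4 uninduced library (edgeR adjusted p = 0.100, 0.198, 0.296 and 0.316), and Tnks changed sign with total count scaling, to −0.018. All cells had been grown in XAV939, which lowers Wnt signalling.

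Jak1 and Jak2, kinases of the LIF receptor and other cytokine receptors, both rose. Jak2 had 2.48, 2.81 and 3.27 CPM uninduced and 16.6, 16.5, 14.2 and 12.04 CPM MEK-inhibited and Jak1 16.1, 19.1 and 19.6 CPM uninduced and 39.9, 41.6, 33.6 and 38.1 CPM MEK-inhibited, log2 fold changes of 2.25 (SE 0.37) and 0.97 (SE 0.20), with edgeR adjusted p = 0.00149 and 0.00435. Jak1 missed the threshold when libraries were scaled by total count, at 0.158. Of the 13 tested genes of LIF and STAT3 signalling 3 were higher (23.1%, against 6.49% of all tested genes) and 1 lower (7.69%, against 4.66%). The other calls, Il6st at 0.53 and Pim3 at -0.68, were lost in 4 and 6 of 7 refits, with adjusted p up to 0.316 and 0.109.

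Some markers of other lineages were higher, while the primitive and visceral endoderm list went both ways. Of its 16 genes 8 could be tested, with Hhex higher at 1.01 and Col4a1 lower at -0.48 on the log2 scale. Each was 12.5% of the 8, against 6.49% higher and 4.66% lower over all tested genes. The list median was −0.39, and with total count scaling none was higher and 1 was lower. Gsc, a factor of the anterior primitive streak, had 0.324, 0.0668 and 0 CPM uninduced and 1.33, 2.58, 2.40 and 1.87 CPM MEK-inhibited. Foxa2, a forkhead factor, had 0.648, 0.201 and 0.363 CPM uninduced and 2.52, 2.27, 2.82 and 1.45 CPM MEK-inhibited, and Eomes, an early mesendoderm factor, had 2.00, 1.94 and 2.06 CPM uninduced and 5.82, 7.02, 6.06 and 4.36 CPM MEK-inhibited. T (Brachyury), the pan-streak marker, was at most 0.363 CPM in any of the 7 libraries. Of 17 listed mesendoderm genes 10 could be tested and 4 of these, with Fgf8, were called higher, against 6.49% of all tested genes. Of 12 neural genes 8 could be tested and 5 were called higher (62.5%, against 6.49% of all tested genes), with Pax6 at 1.08, 0.668 and 0.606 CPM uninduced and 2.24, 2.79, 3.24 and 1.97 CPM MEK-inhibited and Sox1 at 1.30, 3.34 and 4.24 CPM uninduced and 7.85, 7.12, 5.78 and 4.98 CPM MEK-inhibited. With total count scaling 1 of the 8 was called, with Pax6 at edgeR adjusted p = 0.0545 and Sox1 at 0.0523, and 2 were called without the clone 4 uninduced library. Sox1 was lost without the clone 4 uninduced library (edgeR adjusted p = 0.0733). Of 13 trophoblast genes 9 could be tested and 3 were called higher (33.3%, against 6.49% of all tested genes). Krt8, a keratin of simple epithelia, had 7.94, 4.68 and 5.94 CPM uninduced and 25.6, 38.3, 19.03 and 12.6 CPM MEK-inhibited, Gata2 reached 9.91 CPM and Gata3 1.03 CPM. Krt8 and Gata3 were lost without the clone 4 uninduced library (edgeR adjusted p = 0.0789 and 0.121). Low genes like these can pass the filter through the group in which they are high. The Hox gene Hoxb4 had 0.432, 0.535 and 0.121 CPM uninduced and 2.52, 2.99, 1.97 and 1.35 CPM MEK-inhibited and rose by 2.38 on the log2 scale. Col1a1, a fibroblast collagen, had 2.54, 0.869 and 0.969 CPM uninduced and 10.9, 6.09, 3.81 and 3.32 CPM MEK-inhibited, while Col1a2, which encodes its partner chain, was at most 0.810 CPM in any library, and Postn was at 0. The part of other cell types in these values was not tested.

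Genes of the p53 and apoptosis list were mostly lower where called, 8 of 25 (32.0%, against 4.66% of all tested genes), or 9 with total count scaling. The 1 higher gene (4.00%, against 6.49%) was Gadd45b, at 1.22, or with edgeR adjusted p = 0.118 without the clone 4 uninduced library. Cdkn1a (p21), the p53-induced cyclin-dependent kinase inhibitor, had 31.8, 43.2 and 44.1 CPM uninduced and 17.8, 15.3, 23.8 and 18.9 CPM MEK-inhibited, a log2 fold change of -1.08 (SE 0.19) and edgeR adjusted p = 9.62e-04. Its 2 h mean had been above the uninduced level, at 58.01 CPM. Bbc3 (PUMA), a proapoptotic BH3 protein, had 19.1, 23.9 and 27.3 CPM uninduced and 7.92, 6.71, 12.7 and 11 CPM MEK-inhibited, and Phlda3, a p53-induced Akt inhibitor, 31.6, 49.5 and 42.04 CPM uninduced and 14.2, 11.7, 24.2 and 19.6 CPM MEK-inhibited. Sesn2, a stress-induced regulator of mTORC1, had 62.5, 89.03 and 88.9 CPM uninduced and 27.7, 25.6, 55.5 and 55.6 CPM MEK-inhibited and Plk2 33.5, 58.5 and 58.4 CPM uninduced and 19.8, 18.8, 30.3 and 31.2 CPM MEK-inhibited. These 5 lay below every uninduced library, as did 11.3% of all tested genes. Mdm2, which degrades p53 and is itself its target, had 78.6, 166 and 163 CPM uninduced and 71.6, 57.3, 91.4 and 89.6 CPM MEK-inhibited, overlapping across clones, with the clone 4 uninduced library lower than those of clone 8. Mdm2, Phlda3 and Sesn2 were called with clone in the model and not without it. Bid was called at -0.65, or at edgeR adjusted p = 0.0610 without the clone 4 uninduced library.

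Several regulators of the G1 phase were lower. Of 22 tested cyclin and G1 genes 5 were lower (22.7%, against 4.66% of all tested genes) and 1 higher (4.55%, against 6.49%). With total count scaling 3 were lower and none higher. Cdk6 had 14.6, 17.4 and 19.02 CPM uninduced and 5.32, 4.23, 8.60 and 9.34 CPM MEK-inhibited, Ccnd1 is given above, and Cdkn1c (p57) had 14.3, 18.2 and 17.9 CPM uninduced and 20.5, 30.9, 35.1 and 38.7 CPM MEK-inhibited, higher by 0.94 with edgeR adjusted p = 2.82e-04, or 0.60 with 0.217 when scaled by total count. Ccnd3 and E2f1 were called at -0.50 and -0.42, and lost the call in 4 and 6 of the 7 refits, with adjusted p up to 0.142 and 0.157. None of 35 DNA replication genes and none of 35 mitosis genes was called by edgeR with all 15 libraries and TMM scaling, where 6 and 4 had an unadjusted p under 0.05. DESeq2 called 2 and 3 lower, and the fit of only the 7 libraries 5 and 7. Their median log2 fold changes were −0.039 and −0.014.

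Of 29 tested genes of cholesterol and fatty acid synthesis 9 were higher (31.0%, against 6.49% of all tested genes) and 1 lower (3.45%, against 4.66%). Hmgcs1, which makes HMG-CoA, had 205, 197 and 188 CPM uninduced and 319, 374, 386 and 377 CPM MEK-inhibited and a log2 fold change of 0.86 (SE 0.16). Its MEK-inhibited libraries were above the uninduced ones, as in 14.7% of all tested genes. With libraries scaled by total count Hmgcs1 had edgeR adjusted p = 0.273, none of the 29 was called higher and the list median was −0.055, above the −0.30 of all genes. Cyp51, Sc5d, Msmo1, Idi1, Fdft1, Stard4 and Scd2, called at log2 fold changes from 0.29 to 0.81, all lost the call without the clone 4 uninduced library, and Scd2 and Stard4 changed sign with total count scaling, to −0.047 and −0.0048.

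Of 31 tested glycolysis and hypoxia genes 7 were lower (22.6%, against 4.66% of all tested genes) and 2 higher (6.45%, against 6.49%). With total count scaling 3 were lower and none higher. Ldha, lactate dehydrogenase, had 407, 349 and 331 CPM uninduced and 310.3, 305, 259 and 230.1 CPM MEK-inhibited, and Pfkl, the liver phosphofructokinase, 102, 109 and 106 CPM uninduced and 84.5, 66.4, 70.9 and 62.4 CPM MEK-inhibited, log2 fold changes of -0.42 (SE 0.10) and -0.58 (SE 0.14). Both missed the threshold without the clone 4 uninduced library (edgeR adjusted p = 0.0878 and 0.0523) and without the second MEK-inhibited library of clone 8 (0.0560 and 0.0608). Kdm3a, a hypoxia-inducible histone demethylase, rose, at 33.3, 38.3 and 40.6 CPM uninduced and 71.6, 71.2, 57.8 and 60.6 CPM MEK-inhibited with log2 fold change 0.78 (SE 0.10), or 0.48 with edgeR adjusted p = 0.328 when scaled by total count.

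Among 36 polycomb and histone modifier genes 6 were higher (16.7%, against 6.49% of all tested genes) and 2 lower (5.56%, against 4.66%). With total count scaling 1 was higher and 3 were lower. Kdm2b, which recruits a polycomb complex to CpG islands, had 60.9, 58.4 and 57.7 CPM uninduced and 26.9, 22.7, 32.4 and 25.6 CPM MEK-inhibited and a log2 fold change of -1.12 (SE 0.13), with edgeR adjusted p = 1.45e-05. Phf19, a PRC2 accessory factor, had 3.35, 2.34 and 2.54 CPM uninduced and 10.7, 10.3, 6.49 and 5.40 CPM MEK-inhibited, higher by 1.41. Ehmt2 (G9a), a histone H3 lysine 9 methyltransferase, fell by 0.62 (adjusted p = 0.213 without the clone 4 uninduced library, 0.0528 without the second clone 4 MEK-inhibited one). Of 35 splicing factor genes 8 were higher (22.9%, against 6.49% of all tested genes) and none lower, by small amounts. Ptbp1 had 218, 200.1 and 204 CPM uninduced and 257, 326, 250.4 and 301 CPM MEK-inhibited, a log2 fold change of 0.43 (SE 0.0946). The SR protein kinase Clk1 had 29.8, 29.7 and 27.4 CPM uninduced and 40.1, 43.98, 36.5 and 48.4 CPM MEK-inhibited. Scaled by total count, none of these 8 was called, Srsf1 (log2 fold change 0.32) changed sign to −0.022 and the list median went from 0.15 to −0.16.

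Of 81 tested cytosolic ribosomal protein genes 1 was higher (1.23%, against 6.49% of all tested genes) and none lower. Of 77 nuclear oxidative phosphorylation genes 1 was lower (1.30%, against 4.66%). In the fit of only the 7 libraries these were 3 higher and 7 lower, and 6 higher and 2 lower. Their medians were −0.047 and 0.045 on the log2 scale. The 11 tested mitochondrially encoded genes had a median of 1.07. Of the 11, 10 were higher in all MEK-inhibited than in all uninduced libraries, against 14.7% of all tested genes. With TMM scaling and all 15 libraries edgeR called none, nor did DESeq2, with 6 at an unadjusted p under 0.05. With total count scaling 2 were called higher at a median of 0.77, and 3 in the fit of only the 7 libraries. Their share of counts differed between libraries as given above, and its part in other results was not tested. Of 12 interferon and inflammation genes none was called by edgeR with all 15 libraries or by DESeq2, with 3 at an unadjusted p under 0.05, and 1 was lower in the fit of only the 7 libraries.

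**Figure D4:**
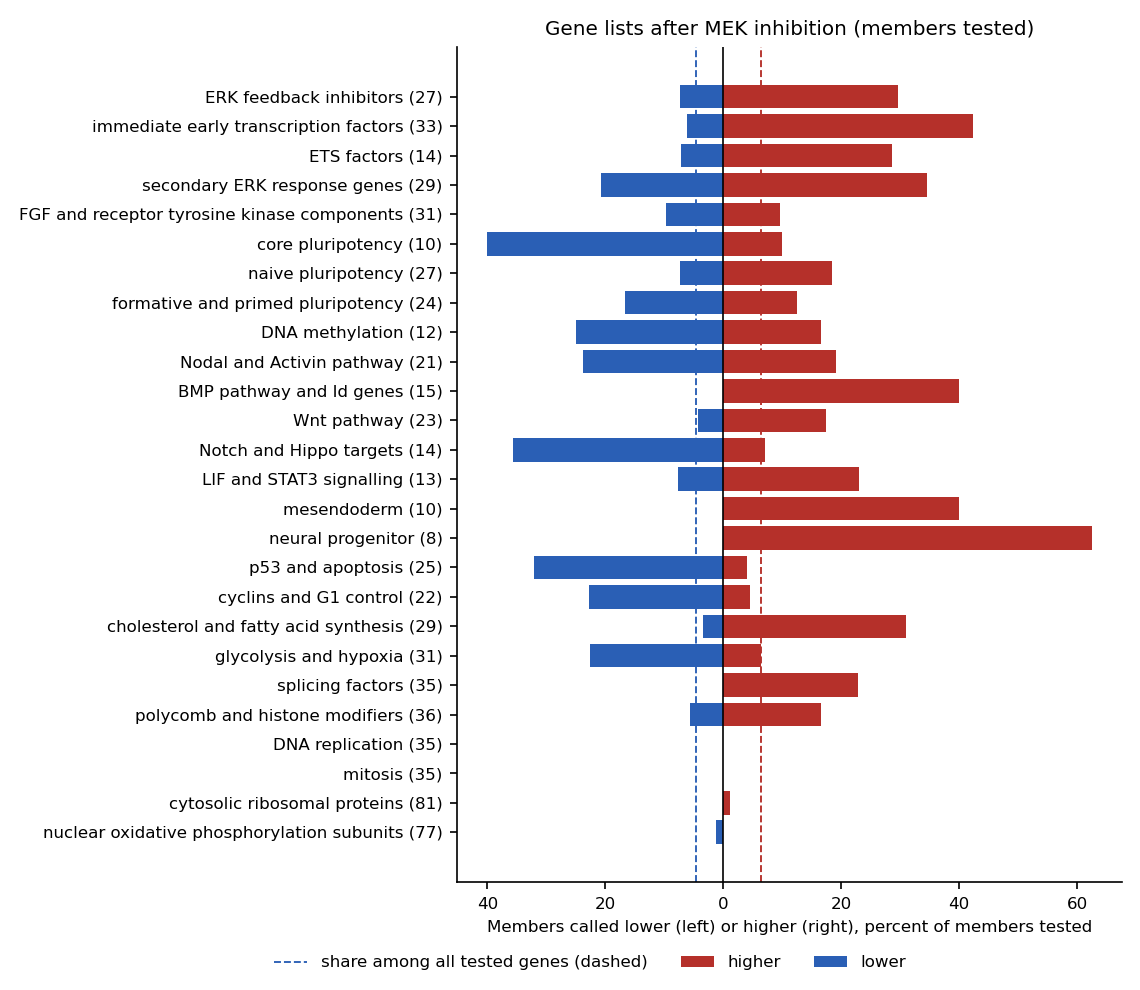
Members of 26 gene lists called lower (blue, to the left) or higher (red, to the right) after MEK inhibition, as percent of members tested (number in brackets). Dashed lines are the shares among all tested genes, 4.66% lower and 6.49% higher; immediate early genes, feedback inhibitors and BMP genes extend to the right, p53 and Notch and Hippo genes to the left, and replication and mitosis genes have no bar.

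In 11 genes, Plaur, Egr1 and Dusp4 among them, the change differed between the 2 clones. The test of a difference between clones in the MEK-inhibited minus uninduced change, fitted with a term per group and clone, called these 11, 0.0818% of tested genes, and none of them with total count scaling. Of these 8 had the larger rise in clone 4. Plaur, the urokinase receptor, had 0.540, 1.47 and 1.70 CPM uninduced and 17.9, 13.1, 3.95 and 4.36 CPM MEK-inhibited, a fitted log2 change of 4.82 in clone 4 and 1.40 in clone 8, a difference of -3.42 (SE 0.47, edgeR adjusted p = 0.00967). Egr1 rose by 6.64 in clone 4 and 4.21 in clone 8. Dusp4, a nuclear ERK phosphatase, had 7.67, 12.8 and 14.1 CPM uninduced and 38.9, 34.1, 22.6 and 19.3 CPM MEK-inhibited, with fitted changes of 2.25 and 0.64, and was not called over both clones (adjusted p = 0.127). Uninduced clone 4 is 1 library, so each difference rests on it. Leaving out any other library of the comparison left 0 to 5 genes called.

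**Figure D5:**
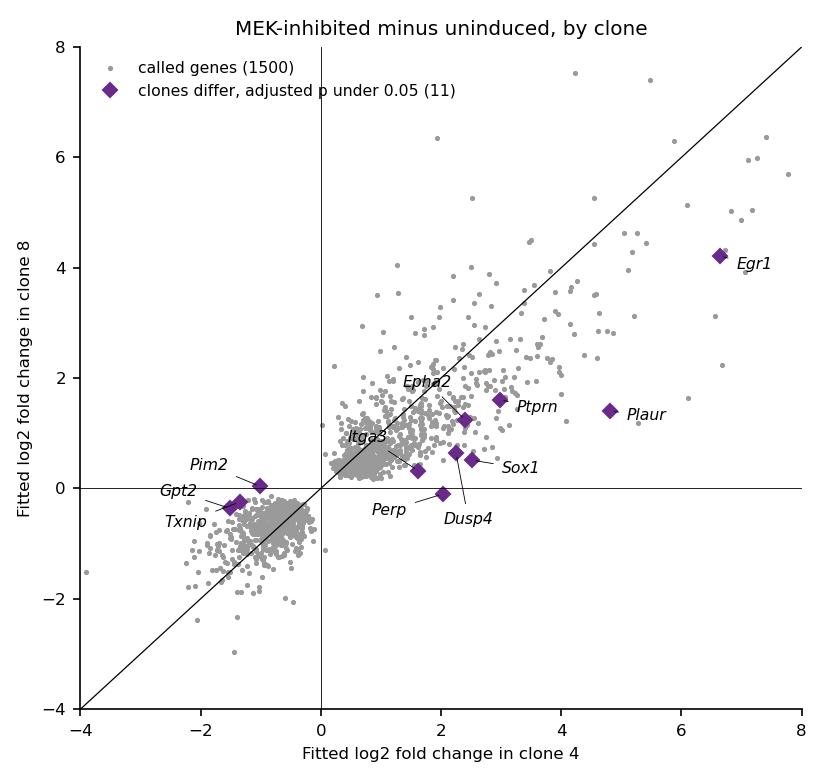
Fitted log2 fold change (MEK-inhibited minus uninduced) in clone 4 (horizontal axis) against clone 8 (vertical axis) for the called genes (grey; 2 lie outside the axes) and the 11 genes whose change differed between clones (purple). The diagonal marks equal change; 8 of the 11 lie to its right with a larger rise in clone 4, and Pim2, Gpt2 and Txnip lie left of 0 on the horizontal axis.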

How the data were processed

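Libraries were made from 1 µg of total RNA after removal of ribosomal RNA. Per the submitters' processing notes, reads were demultiplexed with bcl2fastq 2.19.1 and aligned with STAR 2.5.3a to mm10. The counting tool, gene annotation and strand setting are not given in the sources used here, so reads of overlapping genes on opposite strands cannot be told apart. Among named genes this touches, for example, Nab2, Cdkn1a, Fst, Tet2 and Ptbp1. The authors deposited raw read counts for 52636 genes in 15 libraries, which were used as deposited. Gene symbols and positions came from the GRCm38 annotation.

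Genes were kept with edgeR's filterByExpr (minimum count 10, minimum total 15) and libraries scaled by TMM. All 15 libraries entered one quasi-likelihood fit (edgeR 4.0.16 in R 4.3.3) with terms for group and clone, so that all groups shared 1 estimate of spread. A Benjamini-Hochberg adjusted p under 0.05 counted as a call. Genes at 3 counts or fewer in every library of a group are given as a bound, the mean of the other group against 3 counts per library. Such intervals and floors cover counting error only. On simulated data for this comparison with 200 genes changed by 2 on the log2 scale among 13011, 189 were recovered with 7 false calls, and for the clone difference 130 of 200 among 12965 with 7 false calls. No other difference between groups or clones was simulated. The genes called here had a median absolute log2 fold change of 0.76, so these rates do not carry over to changes of that size.

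Genes named in the text were the 15 largest rises and 15 largest falls among called genes with a mean of at least 1 CPM over the 7 libraries and the same direction in both clones, the 10 smallest adjusted p, and members of gene lists. The members and lists were chosen with earlier results of these data known. The promoters shown, and the genes of the clone test, were taken after their values were seen. Alternatives were RLE and total count scaling, other filters, DESeq2 1.42.0, other sets of libraries, no clone term, a replicate block and leaving out each library. The main fit did not treat samples as paired by replicate number. Some members of the lists are counted but not reported by name here.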

Additional observations from a re-analysis of the deposited data

Results flagged for a closer look

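For 7 of 210 genes looked at, 1 MEK-inhibited library stood apart from the other 3 by a gap above Dixon's 95% critical value for 4 samples, and chance gives about 1 in 20. The second library of clone 4 was low for Ajuba (43.3 CPM) and Ephb4 (13.4 CPM) and high for Rps6ka3 (39.96 CPM) and Sprr1a (21.6 CPM). The first library of clone 4 was high for Pfkm (20.5 CPM) and low for Scd2 (626.5 CPM), and the first of clone 8 was high for Sox4 (29.9 CPM). The cause was not tested.

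The change from uninduced to MEK-inhibited differed between the clones for 11 genes by edgeR's quasi-likelihood test of the difference. On the log2 scale, clone 8 minus clone 4, it was -3.42 for Plaur, -2.43 for Egr1, -2.13 for Perp, -2.01 for Sox1 and -1.61 for Dusp4. It was -1.37 for Ptprn, -1.30 for Itga3 and -1.17 for Epha2. The difference had the opposite sign for Gpt2 (1.15), Txnip (1.11) and Pim2 (1.05). Perp, a p53-regulated membrane protein, had 2.11, 10.03 and 9.45 CPM uninduced and 7.99, 9.29, 9.02 and 9.13 CPM MEK-inhibited, so its difference lay in the lower uninduced level of clone 4. Pim2, a serine kinase, had 116, 48.3 and 44.5 CPM uninduced and 54.9, 59.9, 49.9 and 45.3 CPM MEK-inhibited, with the uninduced library of clone 4 above all others.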

How the results depend on the processing

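The 1500 calls between MEK-inhibited and uninduced cells became 1499 with RLE scaling, 1993 without a filter on low counts, 1948 with DESeq2 and 2065 with the older edgeR quasi-likelihood method, the last chosen after seeing the data. They became 770 with total count scaling, 2289 when mitochondrial genes and the 20 most abundant ones were dropped, 2934 in a fit of only the 7 libraries, 2304 in the 11 libraries without the 4 h group, 793 with no clone term and 762 in clone 8 alone. Leaving out 1 library gave 511 to 1299 calls, and the fit of only the 7 libraries without the clone 4 uninduced one, also chosen after seeing the data, gave 1606. With total count scaling 852 of the 873 higher and 627 of the 627 lower genes kept their direction. That scaling took the median of all tested genes to −0.30, so lower genes could hardly change sign. Under it 244 genes were called higher and 526 lower. Of the genes followed one by one, those that changed sign there were Scd2 (−0.047), Srsf1 (−0.022), Stard4 (−0.0048) and Tnks (−0.018). A replicate block gave 1104 calls, 1079 of them shared with the fit without it. Deviations of same-numbered libraries correlated at 0.087, −0.010 and 0.026, and those of the other pairs at −0.082 to 0.079. Whether same-numbered libraries shared a culture or batch cannot be told from these values. The clone difference was called for 11 genes with RLE scaling, 1 other gene with total count scaling, 65 without a filter, 50 with DESeq2, 132 in the 7 libraries and 0 to 5 when 1 library was left out. It could not be fitted without the clone 4 uninduced library. The cause of these differences was not tested. The 71 higher and 14 lower genes called at a mean under 1 CPM all differed at least 2-fold.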
